A study of Mus musculus with 3 samples.

Results

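The netrin and Slit genes described here are 10 of the 24054 genes in the deposited table, chosen by symbol. They are the netrin receptors Dcc, Neo1, Unc5a, Unc5b, Unc5c and Unc5d, the Slit receptors Robo1 and Robo2, and the ligands Slit1 and Slit2. All 10 averaged at least 1 CPM (the read count scaled to an effective library size) over the libraries, so all could be compared. RNA came from primary cortical neurons of C57BL/6 mice at embryonic day 17, grown for 7 days. Control cells stayed at 21% oxygen. Cells of the hypoxia group spent 7 hours at 0.2% oxygen with no hormone added, and those of the third group, hypoxia plus T3, the same time at 0.2% oxygen with thyroid hormone, 5 nM T3 (triiodothyronine). Whether embryos were pooled, and how much hormone the control medium held, is not given in the sources used here. Each group is 1 library, so no difference below was tested against variation between cultures, and each interval is an exact 95% interval for counting error alone.

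Netrins and Slits are secreted cues that steer growing axons and migrating neurons. Netrin-1 attracts axons that carry DCC or its relative neogenin (Neo1), and repels those that also carry an UNC5 receptor. Slits repel axons and migrating cells through Robo receptors. In the cerebral cortex these systems guide callosal and corticofugal axons and the entry of interneurons. DCC, neogenin and the UNC5 proteins are also known as dependence receptors, which can promote cell death when no ligand is bound.

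The 3 libraries held 17118865 to 22533574 reads. The 6 general neuron markers summed to 5160 to 5455 CPM but did not move together. Tubb3, a neuronal tubulin, was at 1771 CPM in control, 873 CPM in hypoxia and 739 CPM in hypoxia plus T3, while Stmn2, a regulator of microtubules in axons, was at 1334, 1810 and 1793 CPM; both are named after their values were seen. Of the markers of non-neural cells, 4 of the 5 microglia markers and 4 of the 5 endothelial markers stayed below 1 CPM in every library. Astrocyte markers summed to 428 to 454 CPM. The 5 oligodendrocyte lineage markers summed to 197 CPM in control, 114 CPM in hypoxia and 104 CPM in hypoxia plus T3, and none of them was at 0. The 4 excitatory neuron markers used summed to 537, 571 and 557 CPM, and the 5 inhibitory neuron markers to 225, 275 and 275 CPM. The cultures thus held RNA of several neural cell types, and in bulk RNA fewer cells of a type cannot be told apart from less RNA per cell.

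One netrin receptor stood apart in these libraries, Unc5c. The sequences below are the 250 bases before the annotated start site of 3 other netrin receptors, Neo1, Unc5b and Unc5a, shown as receptor genes that stayed inside the 2-fold limits described below, against which Unc5c is read. They are from RefSeq, build GRCm38.p6, the same assembly as mm10, at chr9:59036442-59036691 (minus strand), chr10:60831582-60831831 (minus strand) and chr13:54949161-54949410 (plus strand), written 5′ to 3′. Capitals mark a match to a searched motif.
Neo1: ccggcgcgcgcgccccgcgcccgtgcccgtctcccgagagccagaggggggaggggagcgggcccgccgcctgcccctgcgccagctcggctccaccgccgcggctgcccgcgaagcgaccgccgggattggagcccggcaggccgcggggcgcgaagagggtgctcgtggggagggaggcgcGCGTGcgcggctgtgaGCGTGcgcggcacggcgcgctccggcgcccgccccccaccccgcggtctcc
Unc5b: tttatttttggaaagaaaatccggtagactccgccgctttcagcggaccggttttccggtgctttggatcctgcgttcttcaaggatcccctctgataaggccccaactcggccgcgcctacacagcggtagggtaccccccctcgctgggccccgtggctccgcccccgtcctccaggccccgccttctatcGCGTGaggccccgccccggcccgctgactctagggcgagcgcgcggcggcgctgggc
Unc5a: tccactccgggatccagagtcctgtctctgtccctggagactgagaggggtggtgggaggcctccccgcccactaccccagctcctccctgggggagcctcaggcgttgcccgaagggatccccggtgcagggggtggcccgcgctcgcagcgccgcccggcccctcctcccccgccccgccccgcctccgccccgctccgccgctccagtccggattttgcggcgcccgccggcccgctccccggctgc
The motifs, searched on both strands, were the hypoxia response cores ACGTG and GCGTG, the thyroid hormone half-site AGGTCA and the AP-1 site TGANTCA. Neo1 held 2 matches to GCGTG, Unc5b held 1, and Unc5a held none of the motifs. The window of Unc5c held none of them either. It overlaps GENCODE exons of Unc5c itself and of the antisense gene Gm15688, and is not printed for that reason. Of 32851 promoter windows of this length, 16.6% held ACGTG, 28.2% GCGTG, 14% AGGTCA and 6.75% TGANTCA. Windows were found for 7 of the 10 genes. Among the rest of these, Robo1 held 1 GCGTG, the first of 3 Robo2 windows held 2 overlapping matches to ACGTG, and Slit2 held none. That Robo2 window, at chr16:75447294-75447543, lies outside the GENCODE span of Robo2 used below. The Robo1 window, at chr16:72662899-72663148, lies within the span of Robo1 and not before its start. GC content was 83.2% for Neo1, 66.8% for Unc5b, 76.8% for Unc5a and 71.2% for Unc5c. A match is only a run of letters, and its absence says nothing about a factor.

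The first comparison asks what 7 hours of low oxygen did to these transcripts. Unc5c was much lower in hypoxia, Dcc and Unc5d were moderately lower, the Robo genes and Slit2 were slightly lower, and Neo1 and Slit1 were slightly higher with the deposited scaling, though with equal sums Neo1 was below 1 as a ratio. Unc5c was the sole gene of the 10 past the 2-fold rule, which is applied to log2 ratios after adding 1 CPM. Of all 12692 genes compared, 4.92% were at least 2-fold lower and 1.99% at least 2-fold higher. The median log2 ratio of the 10 genes was −0.36 and that of all genes compared was 0.05. With libraries scaled to equal sums the median of all genes moved to −0.10, the counts over all genes went from 252 higher and 624 lower to 184 higher and 924 lower, and Dcc became the second of the 10 genes past the rule.

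**Figure D1:**
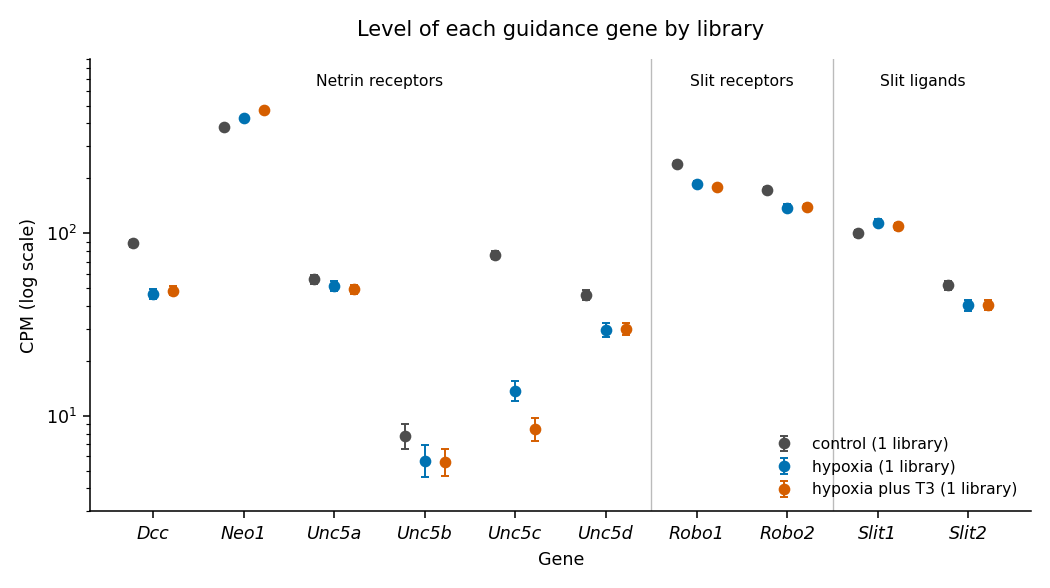
Level of the 10 netrin and Slit genes in each library, in CPM on a log scale. Points are single libraries (control, hypoxia, hypoxia plus T3) and bars are exact 95% counting intervals. Unc5c shows the widest separation, from 75.9 CPM in control to 8.42 CPM in hypoxia plus T3.

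Among the netrin receptors, Unc5c, which converts netrin attraction to repulsion, was at 75.9 CPM in control, 13.8 CPM in hypoxia and 8.42 CPM in hypoxia plus T3, from 1637, 249 and 198 reads. Control was high, hypoxia low and hypoxia plus T3 lower still, and the 3 counting intervals did not overlap. The ratio of hypoxia to control was 0.181 (0.158 to 0.207). Unc5c ranked 10th from the lowest log2 ratio among the 12692 genes. The authors' deposited table of hypoxia against control has Unc5c 5.75-fold lower with a false discovery rate of 0.0226, but how that test was made from single libraries is not given in the sources used here. Over the 13152 genes of the authors' deposited table, 0.646% had a false discovery rate under 0.05.

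Dcc, the receptor through which netrin-1 attracts axons, was at 88.2 CPM in control, 46.6 CPM in hypoxia and 48.4 CPM in hypoxia plus T3. Both hypoxic libraries were low and close to each other. Dcc was 1.90-fold lower in hypoxia than in control (1.75 to 2.06), just short of the rule, and its ratio was 0.468 with equal sums, past it. With TMM factors recomputed with edgeR its ratio was 0.497, and it stayed inside the rule only with the 1 CPM added. The authors' deposited table gave Dcc a 1.98-fold lower value with a false discovery rate of 0.999.

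Neo1, neogenin, the relative of DCC that also binds repulsive guidance molecules, had the highest level of the 10 genes, in CPM and per kilobase of exon. It was at 382 CPM in control, 425 CPM in hypoxia and 475 CPM in hypoxia plus T3. Its ratio of hypoxia to control was 1.11 (1.08 to 1.15), above 1 with the deposited scaling but 0.986 with libraries scaled to equal sums. Because Dcc was lower and Neo1 was not, Dcc made up 18.8% (18.0 to 19.5) of the reads of this pair in control, 9.87% (9.25 to 10.5) in hypoxia and 9.25% (8.74 to 9.77) in hypoxia plus T3. These shares do not depend on the scaling of the libraries.

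The other UNC5 receptors did not follow Unc5c in size. Unc5a was at 55.8 CPM in control, 51.3 CPM in hypoxia and 49.4 CPM in hypoxia plus T3. Its ratio of hypoxia to control, 0.918 (0.842 to 1.001), was not a detectable difference at this depth with the deposited scaling. With equal sums that ratio was 0.813, below the interval. The ratio of hypoxia plus T3 to control for Unc5a was 0.885 (0.816 to 0.960). Unc5b, which is known for its part in blood vessel guidance as well, was at 7.74, 5.69 and 5.57 CPM in the control, hypoxia and T3 libraries. With 103 to 167 reads its ratio of hypoxia to control had a wide interval, 0.735 (0.569 to 0.945). Unc5d was at 46.2 CPM in control, 29.6 CPM in hypoxia and 29.8 CPM in hypoxia plus T3, and was 1.56-fold lower in hypoxia than in control (1.40 to 1.74).

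The make-up of the UNC5 family therefore differed between libraries. Unc5c supplied 40.9% (39.3 to 42.4) of UNC5 reads in control, 13.7% (12.2 to 15.4) in hypoxia and 9.04% (7.87 to 10.3) in hypoxia plus T3. Unc5a supplied 30.1%, 51.1% and 53.0% in the same order, Unc5d 24.9%, 29.5% and 31.9%, and Unc5b 4.17%, 5.67% and 5.98%. The UNC5 sum was 186 CPM in control against 100.3 CPM in hypoxia, 1.85-fold lower (1.75 to 1.96), and without Unc5c it was 110 CPM and 86.5 CPM, 1.27-fold lower (1.19 to 1.35). Per kilobase of exon Unc5a was the leading member in every library, with 56.8% in control, 71.8% in hypoxia and 72.2% in hypoxia plus T3, because the annotated exons of Unc5c cover 19.1 kb and those of Unc5a 4.17 kb. Per kilobase of exon Unc5c went from 16.8% to 4.19% and 2.68%.

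**Figure D2:**
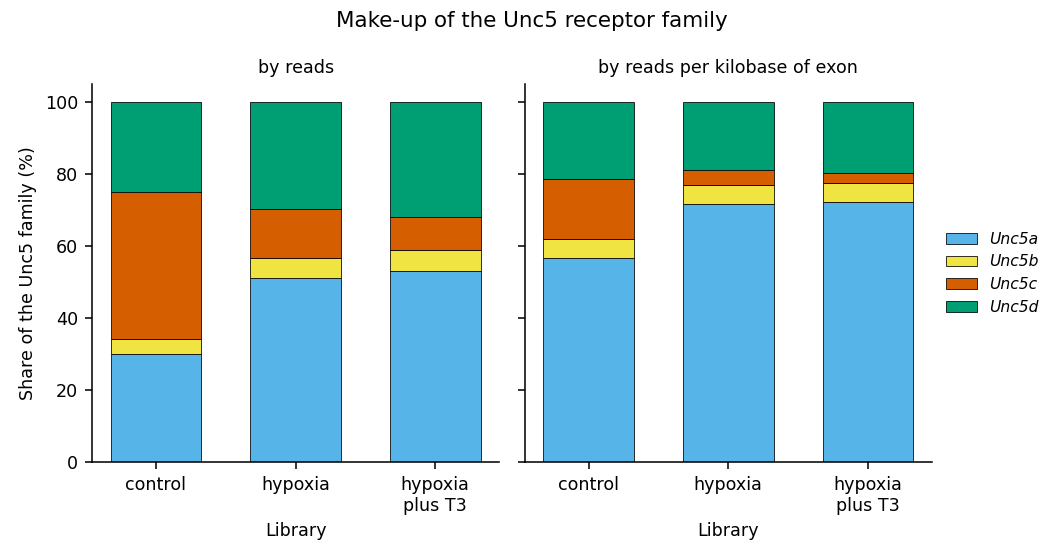
Make-up of the UNC5 receptor family in each library, as the percent of its reads (left) and of its reads per kilobase of exon (right); each bar is 1 library and the colours are the 4 genes. The Unc5c segment is 40.9% of reads in control and 9.04% in hypoxia plus T3, while Unc5a takes 30.1% and 53.0%.

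The Slit receptors kept almost the same proportion to each other. Robo1, which mediates Slit repulsion, was at 241 CPM in control, 187 CPM in hypoxia and 179 CPM in hypoxia plus T3, a ratio of hypoxia to control of 0.777 (0.744 to 0.812). Robo2, its close relative, was at 173, 138 and 140 CPM, a ratio of 0.800 (0.760 to 0.842). Both genes were high in control and lower in both hypoxic libraries. Robo1 supplied 58.2% (57.2 to 59.2) of the reads of the pair in control, 57.5% (56.2 to 58.8) in hypoxia and 56.1% (55.01 to 57.3) in hypoxia plus T3.

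The Slit ligands differed from each other. Slit1 was at 100.1 CPM in control, 114 CPM in hypoxia and 109 CPM in hypoxia plus T3. Its ratio of hypoxia to control was 1.14 (1.07 to 1.21) with the deposited scaling and 1.01 with equal sums. Slit2 was at 51.8, 40.3 and 40.5 CPM, a ratio of hypoxia to control of 0.777 (0.707 to 0.854). Slit1 made up 65.9% (64.2 to 67.5) of the reads of the 2 ligands in control, 73.9% (72.2 to 75.5) in hypoxia and 72.9% (71.4 to 74.4) in hypoxia plus T3.

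Compared per kilobase of annotated exon, which allows levels of different genes to be set side by side, Neo1 led in control at 43.8 CPM per kb. Slit1 at 16.9, Robo1 at 14.6, Unc5a at 13.4 and Robo2 at 10.2 CPM per kb followed. Dcc at 6.70, Unc5d at 5.01, Unc5c at 3.96, Slit2 at 2.04 and Unc5b at 1.24 CPM per kb were lowest, and in control no 2 neighbours in this order had overlapping counting intervals. In hypoxia Unc5c was last at 0.719 CPM per kb, with an interval that overlapped that of Unc5b at 0.909 CPM per kb. The intervals of Unc5a and Robo1, and those of Dcc and Unc5d, overlapped in hypoxia too. In hypoxia plus T3 Unc5c was last at 0.440 CPM per kb, its interval lay below that of Unc5b at 0.890 CPM per kb, and among neighbours Dcc and Unc5d alone overlapped. These levels depend on the exon models, since a long untranslated end that neurons do not use lowers the value of a gene.

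**Figure D3:**
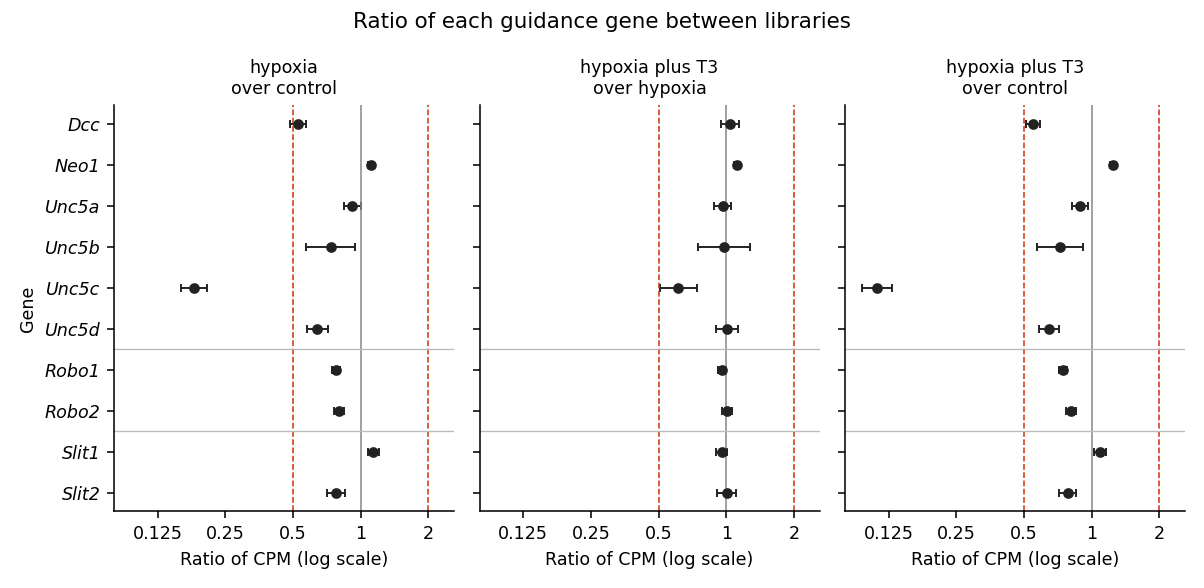
Ratio of CPM between libraries for each gene, on a log scale, with exact 95% counting intervals; the panels are the 3 comparisons, the grey line is a ratio of 1 and the dashed lines are 2-fold. Unc5c lies at 0.181, 0.612 and 0.111 from left to right, and the other 9 genes lie between the dashed lines in every panel.

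The second comparison asks what T3 added under low oxygen. Unc5c was lower again with the hormone, Neo1 was slightly higher, and for the other 8 genes no difference was detectable at this depth. None of the 10 was at least 2-fold apart, against 0.063% of all 12692 genes at least 2-fold lower and 0.126% at least 2-fold higher. Unc5c was at 13.8 CPM without and 8.42 CPM with T3, 1.63-fold lower (1.35 to 1.98), and ranked 23rd from the lowest log2 ratio. Neo1 was at 425 and 475 CPM, a ratio of 1.12 (1.09 to 1.15), and both ratios kept their direction under each of the 3 other scalings. The 8 remaining ratios ran from 0.955 for Slit1 to 1.04 for Dcc. The widest interval among them was that of Unc5b, 0.751 to 1.28, so a change of that size in Unc5b would not have been seen. The median log2 ratio of the 10 genes was −0.01, beside 0.01 over all genes.

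The third comparison sets hypoxia plus T3 against the same control library as the first, so the values are given side by side and are not further evidence. Unc5c was at 75.9 and 8.42 CPM, a ratio of 0.111 (0.0953 to 0.129), and ranked 4th from the lowest of 12692. It was again the sole gene of the 10 past the rule, beside 4.59% of all genes at least 2-fold lower and 2.06% at least 2-fold higher. The authors' deposited table for this comparison gave Unc5c a 9.46-fold lower value and Dcc a 1.91-fold lower one. Dcc was 1.82-fold lower (1.69 to 1.96) and Unc5d 1.55-fold lower (1.41 to 1.71). Neo1 had a ratio of 1.24 (1.21 to 1.28). Each of the 3 other scalings kept the ratio of Neo1 above 1 but put it below that interval, the lowest at 1.088 with equal sums. Slit1 had a ratio of 1.09 (1.03 to 1.15) that became 0.952 with equal sums.

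Gene length moved with these ratios. Genes that span 300 kb or more from first to last exon had a median log2 ratio of hypoxia over control of −0.37, and 15.7% of these 497 genes were at least 2-fold lower. The 1526 genes of 100 to 300 kb were much like them, with a median of −0.35 and 18.0% at least 2-fold lower. The median was −0.12 for genes of 30 to 100 kb and 0.24 for genes under 30 kb, a class that holds none of the 10. Of the 10 genes 6 span 300 kb or more. All 6 had a log2 ratio below 0, from −0.32 for Robo2 to −2.38 for Unc5c, beside 5770 of all 12692 genes compared. The 4 shorter ones were Neo1 at 0.15, Slit1 at 0.19, Unc5a at −0.12 and Unc5b at −0.39. Neo1 and Slit1, the 2 genes above 0 with the deposited scaling, lie in the class of 100 to 300 kb, whose median was below 0, and with equal sums Neo1 was below 0 too.

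Each gene was therefore set beside the other genes whose span lay within a factor of 1.5 of its own. Unc5c, at chromosome 3, 141465216 to 141834924 on the plus strand, spans 370 kb. Its log2 ratio of −2.38 compares with a median of −0.37 over 483 genes of like span, of which 1 was lower still, Maml2, named after its value was seen. Robo1 (738 kb, chromosome 16, 72308306 to 73046095, plus strand) and Robo2 (520.0 kb, chromosome 16, 73891839 to 74411825, minus strand) lay 0.04 and 0.08 above the medians of their like-span genes. Slit2 (325 kb, chromosome 5, 47983138 to 48307733, plus strand) lay 0.01 above. The ratios of these 3 genes were thus close to what was usual for their span. Unc5d (573 kb, chromosome 8, 28646717 to 29219636, minus strand) lay 0.24 below its median, and Dcc (1097 kb) lay below its median of −0.39 with 13 of 88 like-span genes lower still. Neo1 (162 kb, chromosome 9, 58874687 to 59036441, minus strand) and Slit1 (143 kb, chromosome 19, 41600257 to 41743665, minus strand) lay 0.50 and 0.54 above theirs. Unc5a (56.6 kb, chromosome 13, 54949411 to 55006018, plus strand) lay 0.02 above and Unc5b (69.0 kb, chromosome 10, 60762593 to 60831581, minus strand) 0.18 below. The part of span in these ratios was not tested. With T3 the like-span medians were near 0 for every gene, and of the 483 genes of like span 1 had a lower log2 ratio than Unc5c, Nyap2, also named after its value was seen.

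**Figure D4:**
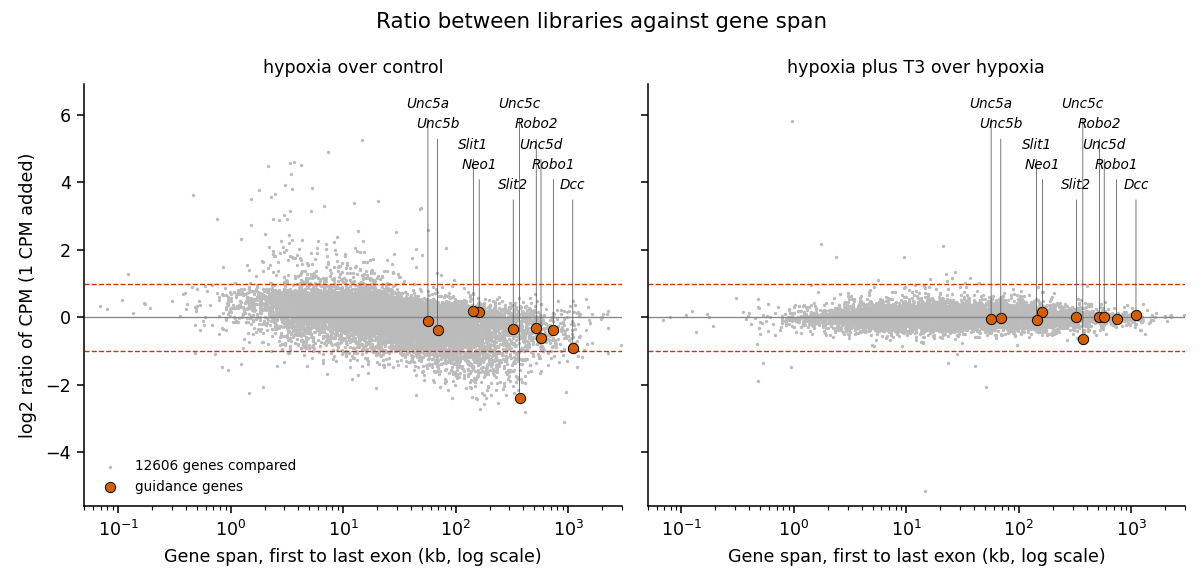
The log2 ratio of CPM (1 CPM added) against gene span on a log scale, for hypoxia over control (left) and hypoxia plus T3 over hypoxia (right). Grey points are the 12606 genes with an annotated span and orange points the 10 guidance genes; on the left longer genes lie lower, and Unc5c lies at −2.38, below nearly all genes of its span.

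Reads of these genes could be assigned with little ambiguity. At most 0.365% of the 31-base words of any of the 10 occurred in a transcript of another gene. Exons overlapped those of another gene for 118 bases of Unc5c, by the antisense gene Gm15688, and for 34 bases of Unc5a, by Hk3 on the opposite strand. The kit keeps strand, but how reads were counted by strand is not given in the sources used here.

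The rest of the pathway was described from 4 lists of ligands, receptors, signalling partners and partners in cell death, 82 genes of which 77 were compared. In hypoxia 7 of the 77 were at least 2-fold lower and 1 at least 2-fold higher, against 4.92% lower and 1.99% higher over all genes compared. Their median log2 ratio was −0.16, against 0.05 over all genes compared. With the deposited scaling 47 of the 77 were below 0, beside 5770 of all 12692 genes compared. With T3 none of the 77 was 2-fold apart from hypoxia alone, against 0.063% lower and 0.126% higher over all genes compared. Of 13 other ligands 2 were at least 2-fold lower in hypoxia. Flrt2, a membrane protein that binds UNC5 receptors, was at 109 CPM in control, 20.0 CPM in hypoxia and 15.9 CPM in hypoxia plus T3, and was 5.44-fold lower in hypoxia than in control (4.86 to 6.09). Its relative Flrt3 was at 45.3, 76.7 and 68.0 CPM, named after its values were seen. Ntng1, a netrin-like membrane protein that does not bind DCC, was at 12.7, 5.69 and 6.42 CPM. Ntn4, a basement membrane netrin, was at 4.59, 1.93 and 1.32 CPM, and passed the rule only for hypoxia plus T3 against control.

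The main ligand of DCC and the UNC5 receptors, netrin-1 (Ntn1), was itself measured, at 12.2, 9.44 and 10.1 CPM in the control, hypoxia and T3 libraries. Its ratio of hypoxia to control was 0.775 (0.635 to 0.943). Slit3, the third Slit, was at 16.5, 8.73 and 8.93 CPM, 1.89-fold lower in hypoxia than in control (1.56 to 2.29). Draxin, a secreted repellent that binds DCC, was at 60.7, 71.5 and 73.5 CPM, and Dscam, a further netrin receptor, at 77.0, 71.5 and 65.7 CPM. Robo3, which lets commissural axons reach the midline, had 1, 4 and 17 reads, a ratio of hypoxia to control of 4.77 with a counting interval of 0.472 to 235.

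Of 12 other receptors 2 were at least 2-fold lower in hypoxia, both of them type I receptors for bone morphogenetic proteins, with which neogenin is linked. Bmpr1a was at 64.6, 29.4 and 29.9 CPM, and Bmpr1b at 10.1, 3.48 and 2.72 CPM. Of 44 signalling partners 3 were at least 2-fold lower and 1 higher in hypoxia, shares close to the 4.92% and 1.99% over all genes compared, so these counts do not set the list apart; the 4 genes are given by the naming rule. Cables1, an adaptor that links Robo to Abl kinase, was at 14.5, 3.59 and 3.61 CPM. Myo10, an unconventional myosin that carries DCC into filopodia, was at 34.9, 12.04 and 14.2 CPM. Cttnbp2, a cortactin-binding protein of dendritic spines, was at 68.3, 29.5 and 29.6 CPM. The higher gene was Siah2, a ubiquitin ligase of the family that degrades DCC, and one that also acts on the oxygen-sensing prolyl hydroxylases, at 24.3, 55.5 and 57.2 CPM. The slit-robo GTPase activating proteins Srgap1, Srgap2 and Srgap3 were within the rule, and so were all 8 partners in cell death, among them Dapk1, a kinase bound by UNC5 receptors, at 150 CPM in control against 87.2 CPM in hypoxia.

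**Figure D5:**
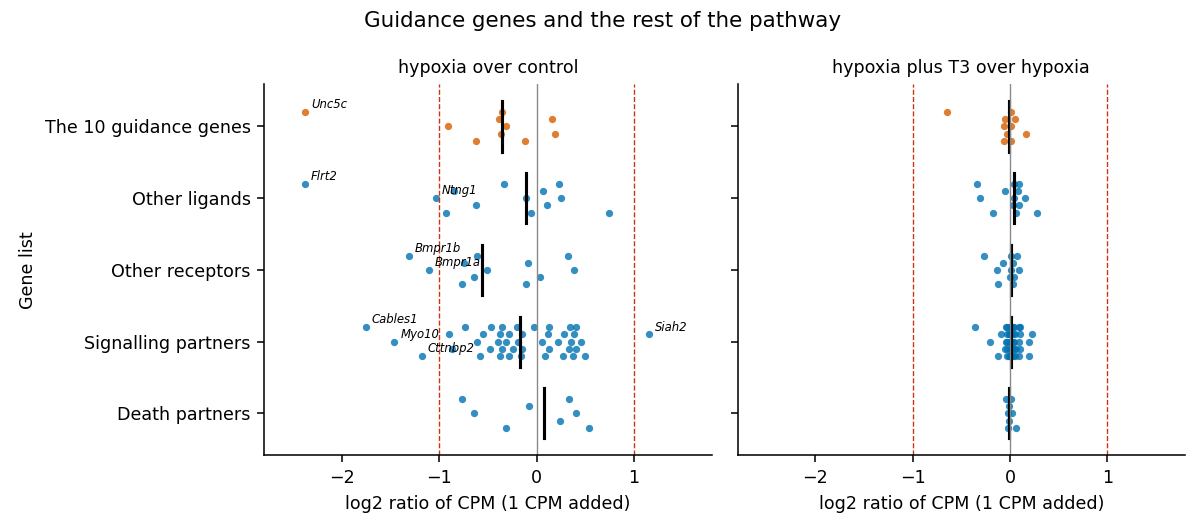
The log2 ratio of CPM (1 CPM added) of the 10 guidance genes and of the 4 lists of other pathway genes, for hypoxia over control (left) and hypoxia plus T3 over hypoxia (right). Each point is a gene, black bars are medians and dashed lines 2-fold; on the left Unc5c and Flrt2 lie farthest to the lower side, and on the right no gene passes a dashed line.

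The genes whose pattern over the 3 libraries was most like that of Unc5c were found by the distance between their 2 log2 ratios, hypoxia over control and hypoxia plus T3 over hypoxia, among 9974 genes that averaged 5 CPM or more. Among the nearest were Flrt2 at a distance of 0.33, Cdh10 at 0.37, Maml2 at 0.50 and Runx1t1 at 0.53. Flrt2 is the ligand described above. Cdh10, a cadherin, was at 56.1 CPM in control, 12.9 CPM in hypoxia and 8.76 CPM in hypoxia plus T3. All 4 were high in control and low in both hypoxic libraries, which is what the measure selects. The lower sum of the oligodendrocyte lineage markers moved with Unc5c, and its part in the level of Unc5c was not tested.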

How the data were processed

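RNA-seq of 3 libraries was analysed, 1 per group, grouped by the treatment labels. Per the submitters' processing notes the tools were bcl2fastq 2.17, Bowtie2 2.1.0 and RSEM 1.2.15 and the build mm10, with no role given. The authors deposited CPM values, scaled by TMM per the file name. Divided by the value of 1 read, every value was whole within 0.01 (0.0463, 0.0552 and 0.0425 CPM per read), so reads were recovered: 18081904, 17118865 and 22533574 for control, hypoxia and hypoxia plus T3. The authors also deposited 2 tables against control, of 13152 genes, with a signed fold (a score written as minus the inverse below 1), p-values, false discovery rates, and signal columns on another scale that were not used.

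The members and lists were chosen with earlier results of these data known. With 1 CPM added to each value, log2 ratios were computed for genes averaging 1 CPM or more, and 2-fold was the rule. Printed ratios are of CPM without the added value, with 95% intervals (Clopper-Pearson, exact) for the split of reads between libraries; levels have exact Poisson intervals. Reads are not independent molecules, so intervals cover counting error only. A count test on the recovered reads needs replicates and was not run. Named were the 10 genes, genes of the lists past 2-fold (up to 6 a list), Ntn1, Slit3, Draxin, Dscam and Robo3, and the 5 genes nearest to Unc5c, leaving out predicted models (Gm and Rik symbols). One gene is not reported here and was left out of the names and of a marker list's sum, which changes that sum. Srgap1, Srgap2, Srgap3, Dapk1, Flrt3 and the cell type markers are named outside this rule. Spans and exon lengths came from GENCODE M21 (GRCm38) for 99.3% of the genes compared. Alternatives were the added value, the filter, 3 scalings and exon length. The procedure was tested on simulated data with counting noise only, which cannot show how it behaves under variation between cultures. Python 3.11.15, numpy 2.4.6, pandas 2.3.3, scipy 1.17.1, matplotlib 3.10.9, R 4.3.3 and edgeR 4.0.16 were used.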

Additional observations from a re-analysis of the deposited data

How the results depend on the processing

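No paired analysis was possible because each group has 1 library, and for the same reason no replicate could be left out. The added value (0.5 or 2 CPM), the filter (none, or a mean of at least 5 CPM), size factors by median of ratios and TMM factors recomputed with edgeR left the count of genes past 2-fold at 1, 0 and 1 in the 3 comparisons. Libraries scaled to equal sums gave 2 of the 10 genes at least 2-fold lower in hypoxia than in control and 2 in hypoxia plus T3 than in control, Unc5c and Dcc in both, and moved the median log2 ratio of the 10 genes from −0.36 to −0.53 for hypoxia over control, while that of all genes went from 0.05 to −0.10. That scaling put 8 of the 10 ratios of hypoxia to control outside their counting intervals, all but those of Unc5b and Unc5c. It also took Neo1 for hypoxia over control (0.986) and Slit1 for hypoxia plus T3 over control (0.952) below 1. The recomputed TMM factors put 3 of the 10 ratios of hypoxia to control outside their intervals, and 4 of hypoxia plus T3 to control. Median-of-ratios size factors put 1 and 3 outside in the same order. Per kilobase of exon instead of per read, Unc5c made up 16.8%, 4.19% and 2.68% of the UNC5 family in the control, hypoxia and T3 libraries, and the change follows from the longer exons of Unc5c. The shares of Robo1 moved by less than their intervals. The limit that no reads would set, 3 reads, is 0.139, 0.166 and 0.128 CPM in the same order, and none of the 10 genes was near it.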

Other observations

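Unc5c has a close neighbour among the genes compared. Bmpr1b, a bone morphogenetic protein receptor on the opposite strand at chromosome 3, 141837136 to 142169425, ends 2.21 kb beyond the end of Unc5c, so that the 2 genes point towards each other. Both were lower in the hypoxic libraries, Bmpr1b from 10.1 CPM in control to 3.48 CPM in hypoxia and 2.72 CPM in hypoxia plus T3. Rap1gds1, the nearest compared gene on the other side, lies 2390.01 kb away and was at 170.5, 211 and 213 CPM. Both neighbours were chosen by position.

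The other large guidance families, the semaphorins, plexins, neuropilins, ephrins and Eph receptors, were counted by symbol for comparison. Of their 48 genes compared, 4 were at least 2-fold lower and 2 at least 2-fold higher in hypoxia than in control, against 4.92% lower and 1.99% higher over all genes compared. Their median log2 ratio was −0.31, against −0.36 for the 10 netrin and Slit genes and 0.05 for all genes compared. With the deposited scaling 36 of the 48 were below 0, beside 5770 of all 12692 genes compared. With T3, 1 of the 48 was at least 2-fold higher than in hypoxia alone, against 0.126% of all genes compared. It was Sema7a, a membrane-anchored semaphorin, at 66.7 CPM without and 142 CPM with the hormone, named after its value was seen.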
